A study of Mus musculus with 2 samples.

Results

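The cluster of miR-191 and miR-425 was followed through 2 rows of the tables of embryonic mouse lung, Gm24083 and Mir425, out of 1973 microRNA genes. The rows were found by matching identifiers, without their version, to gene names of GENCODE release M21. Mir425 is the gene of miR-425. Gm24083 is annotated on the strand opposite to Mir191, the gene of miR-191, and its reads were counted separately by strand. Small RNA under 30 bases was sequenced from lungs of B6NCrl mouse embryos at embryonic day 16.5, in 1 group of 2 libraries labelled biological replicates 1 and 2. Each library was a pool of male and female embryos (41 for replicate 2, number not given in the labels for replicate 1), healthy per the labels, with no treatment or mutation named. The libraries held 6376715 and 4123748 counts over microRNA genes in replicates 1 and 2, and 30.0% and 31.8% of all reads fell on more than one locus. In the whole-lung pools, fewer cells of a type and less RNA per cell cannot be told apart.

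MicroRNAs are cut from hairpin-shaped transcripts and guide a silencing complex to messenger RNAs, chiefly through the seed, bases 2 to 8 of the mature strand. miR-191 and miR-425 lie close together in the same direction and are generally described as products of a shared primary transcript of Dalrd3. Dalrd3 encodes a protein that in human cells helps to methylate certain transfer RNAs. Both microRNAs are found in many tissues, and miR-191 is often used as a reference in measurements of other microRNAs.

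The hairpins are shown first because they settle what the row named Gm24083 can hold. The sequences are from RefSeq (build GRCm38.p6, the mm10 assembly, plus strand of chromosome 9, 5′ to 3′), and capitals mark the mature arms. Mir191 lies at 108568319 to 108568392 and Mir425 at 108568777 to 108568861, so 384 bases separate them.
Hairpin of Mir191: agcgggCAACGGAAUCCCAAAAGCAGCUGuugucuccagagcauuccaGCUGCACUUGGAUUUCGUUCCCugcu
Hairpin of Mir425: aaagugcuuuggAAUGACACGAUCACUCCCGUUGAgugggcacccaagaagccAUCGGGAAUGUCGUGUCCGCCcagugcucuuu

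Gm24083 (ENSMUSG00000092915.1) spans 108568295 to 108568414 of chromosome 9 on the minus strand (mm10). Read on the plus strand, the reverse complement of its annotated transcript holds the whole Mir191 hairpin at bases 25 to 98 of 120, with both mature arms in capitals. The transcript as annotated held 0 of the 2 arms.
Opposite strand of Gm24083: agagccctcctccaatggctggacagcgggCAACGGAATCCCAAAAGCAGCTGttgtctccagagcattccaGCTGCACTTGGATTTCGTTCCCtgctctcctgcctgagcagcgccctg

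The mature arms are given with the seed in capitals, since the seed sets the target sites a microRNA can pair with.
mmu-miR-191-5p: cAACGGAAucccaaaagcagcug
mmu-miR-191-3p: gCUGCACUuggauuucguuccc
mmu-miR-425-5p: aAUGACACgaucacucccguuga
mmu-miR-425-3p: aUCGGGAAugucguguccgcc
The arms share no seed among themselves. Set side by side from the 5′ end, the 5p arms had the same base at 5 of 23 positions, 2 of them in the seed, and the 3p arms at 6 of 21 positions, 1 of them in the seed. Among the 1738 mature sequences of the RefSeq table, 1 other carried the seed of miR-425-5p, miR-489-3p, and none carried the seed of miR-191-5p, miR-191-3p or miR-425-3p. Mir489, its gene, had 1 count in each library, which is within the 3 counts that a count of 0 is taken to allow. The deposited gene counts do not separate the 5p from the 3p arm, so the levels below are sums over a hairpin. With each gene taken on its annotated strand, neither Gm24083 nor Mir425 shared 22 bases with another microRNA gene of the tables. That comparison did not cover the opposite strand of Gm24083, which holds the Mir191 hairpin.

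The host of the cluster depended on the annotation. In RefSeq, Dalrd3 covers 108567484 to 108572773 and thus both hairpins, and its start lies 835 bases before that of Mir191. In GENCODE M21, Dalrd3 covers 108569886 to 108572774 on the plus strand and starts 1024 bases after the end of Mir425. There both hairpins lie inside the lincRNA 4833445I07Rik (108567533 to 108569174, plus strand), within the single exon of its first listed transcript. Its second transcript has exons at 108567893 to 108568180 and 108568484 to 108568774, so Mir191 falls in its intron and Mir425 lies past its end. The nearest gene on the other flank, Ndufaf3, which encodes an assembly factor of mitochondrial complex I, is on the minus strand and ends at 108567434. Of the other microRNA genes detected here (at least 10 counts in each library), the closest to the cluster was Mir6236, 1.71 Mb away.

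**Figure D1:**
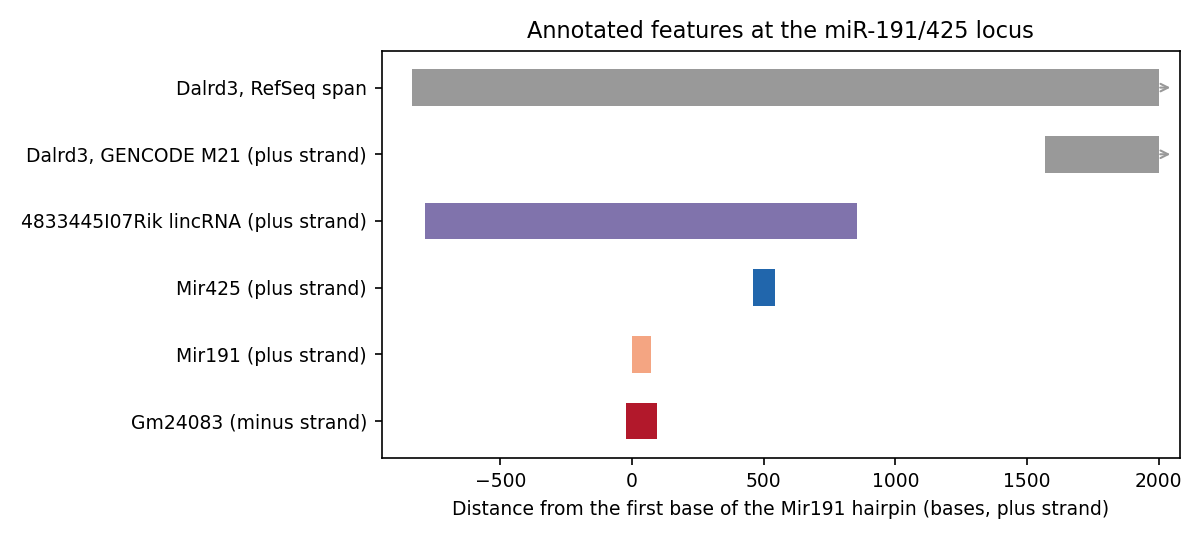
Features at the locus of miR-191 and miR-425, by distance in bases from the first base of the Mir191 hairpin along the plus strand; arrows mark genes that run past the right edge. Gm24083 covers Mir191 on the other strand, and both hairpins lie within the RefSeq span of Dalrd3 and the lincRNA 4833445I07Rik but before the GENCODE start of Dalrd3.

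The reads of both rows came from the plus strand almost without exception. Gm24083 had 15279 counts in replicate 1 and 10197 in replicate 2. Of these, 15279 and 10196 were on the strand opposite to its annotation, the strand of Mir191, and 0 and 1 on its own strand. The opposite-strand share was thus 100% in replicate 1 (95% exact Clopper-Pearson interval 99.976 to 100%) and 99.99% in replicate 2 (99.945 to 100%). Taken as a limit of 3 counts, which is one-sided and so tighter than the two-sided interval, the 0 counts on its own strand in replicate 1 allow a share of up to 0.0196%.

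Mir425 showed the reverse layout, with its reads on its annotated strand. It had 10757 counts in replicate 1 and 6300 in replicate 2, all on its own strand. By the same limit, the 0 counts on the opposite strand allow shares of up to 0.0279% and 0.0476%. The counts in the row Gm24083 are therefore those of Mir191's strand, and no separate row of Mir191 was used here. All intervals and limits cover counting error only, since the libraries carry no molecular identifiers and amplified copies of a molecule count repeatedly.

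**Figure D2:**
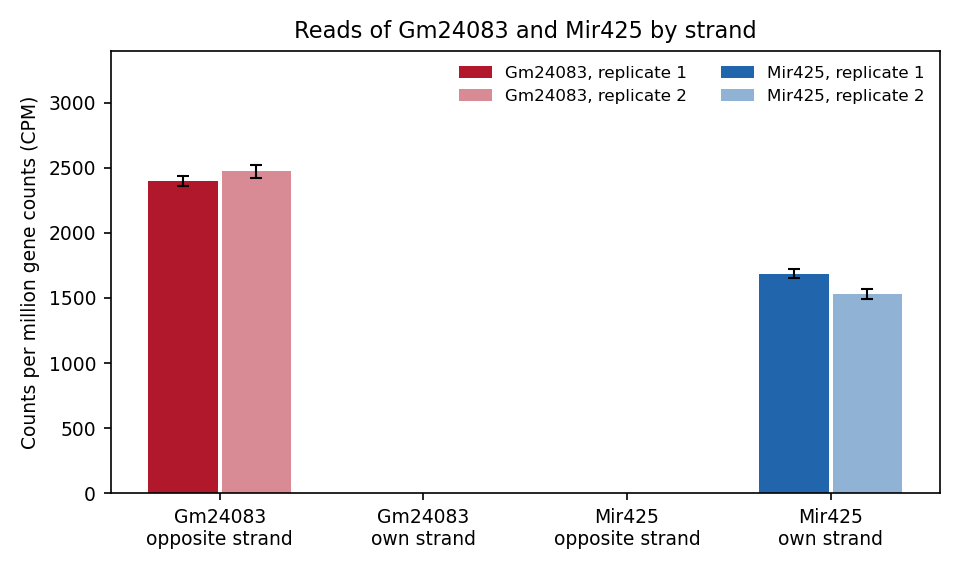
Level of each gene by strand in CPM (counts per 1000000 gene counts), replicate 1 left and replicate 2 right; bars are single libraries and whiskers are exact 95% intervals for counting error. Gm24083 shows bars only on the opposite strand, at 2396 and 2473 CPM, and Mir425 only on its own, at 1687 and 1528 CPM.

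Such a layout was uncommon. Of the 347 detected genes, 10 (2.88%) had over 50% of their counts on the opposite strand in both libraries, and Gm24083 was the fourth most abundant of them. In each of the 10, GENCODE M21 annotates another microRNA gene on the strand that held the reads, and none of these partners was read from a row of its own here. The others of the 5 most abundant were Gm25301, opposite Mir378a, at 5458 CPM ± 471, Gm24321, opposite Mir409, at 5091 ± 239, Gm25927, opposite Mirlet7e, at 4960 ± 10.8, and Gm25252, opposite Mir376a, at 2409 ± 150 (SD, n = 2 each).

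Among the remaining 337 detected genes, Mir425 included, 297 had 0 opposite-strand counts in both libraries. Summed over these 337 genes, opposite-strand counts were 0.00814% of the total in replicate 1 and 0.00885% in replicate 2. The highest single shares were 41.7% for Mir1b in replicate 1, where it had 12 counts in all, and 38.9% for Mir3074-1 in replicate 2. Mir3074-1 was at 145 CPM in that library, so its share did not rest on a few counts. Gm24083 alone supplied 9.07% and 9.11% of all opposite-strand gene counts in replicates 1 and 2.

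**Figure D3:**
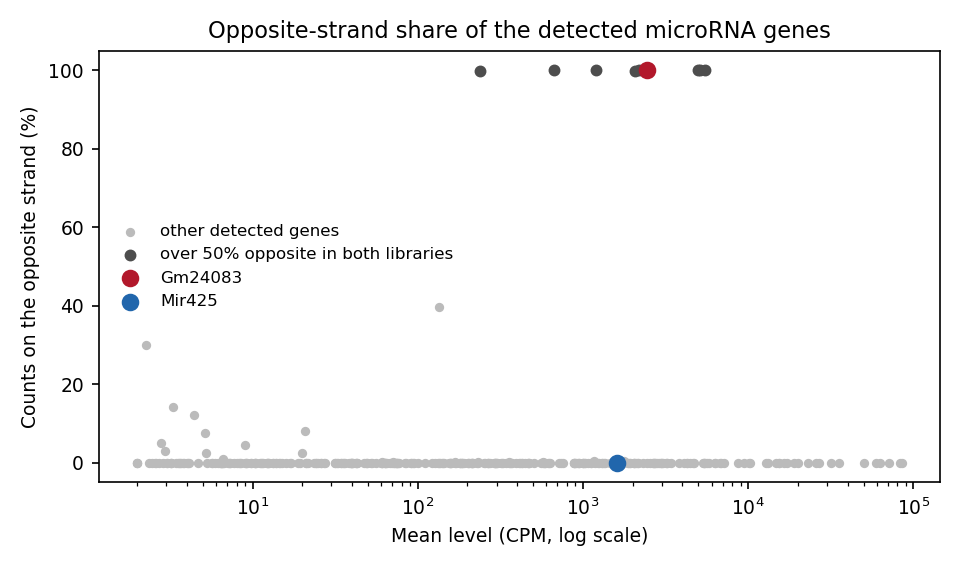
Share of counts on the opposite strand (%, mean of the libraries) against mean level (CPM, log scale) for the 347 detected genes, one point per gene. Gm24083 sits with the other genes of the group of 10 near 100%, and Mir425 sits at 0% with most detected genes.

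Both members were abundant without being among the leading microRNAs of the lung. The row of Gm24083, read here as miR-191, stood at 2396 CPM in replicate 1 (exact interval 2358 to 2434) and 2473 CPM in replicate 2 (2425 to 2521), a mean of 2434 ± 54.2 (SD, n = 2). Mir425 stood at 1687 CPM in replicate 1 (1655 to 1719) and 1528 CPM in replicate 2 (1490 to 1566), a mean of 1607 ± 113 (SD, n = 2). Gm24083 was above Mir425 in both libraries, and their ranges did not overlap. CPM was not divided by gene length, since the mature arms of both hairpins are of nearly equal length, 21 to 23 bases.

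By mean level Gm24083 was place 63 and Mir425 place 81 of the 347 detected genes. Their levels were 13.5 and 8.92 times the median detected gene, 180 CPM. The place of Gm24083 was 63 in replicate 1 and 62 in replicate 2, and that of Mir425 was 79 and 85. Together the cluster held 0.408% of gene counts in replicate 1 and 0.400% in replicate 2, a summed level of 4083 and 4000 CPM (mean 4042 ± 58.7, SD, n = 2).

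The genes nearest to Gm24083 in mean level were Mir183, Mir139 and Mir342 above it and Gm25252, Mir27b and Mir497b below. Gm25252 and Mir497b, like Gm24083, held nearly all their reads on the opposite strand, that of Mir376a and Mir497 respectively. Likeness here means the difference in mean CPM over 2 libraries, nothing more. The ranges of Mir139 (2540 CPM ± 101), Mir183 (2439 ± 230), Gm25252 (2409 ± 150) and Mir27b (2293 ± 146) overlapped that of Gm24083. Mir183 and Gm25252 changed order with Gm24083 between the libraries, while Mir139 was above it and Mir27b below it in both. The ranges of Mir342 (2650 ± 168), above it, and Mir497b (2173 ± 180), below it, did not overlap its own. Mir183 belongs to a cluster of sensory epithelia, and Mir139 lies in the gene of a phosphodiesterase.

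Around Mir425 lay Mir298, Mir324 and Mir203 above and Mir141, Mir181a-1 and Mir205 below. Mir298 (1703 CPM ± 12.4) and Mir324 (1756 ± 24.8) did not overlap its range. Mir141 (1587 ± 35.8), a member of the miR-200 family of epithelium, overlapped it, as did Mir205 (1535 ± 184), a microRNA of basal epithelial cells, and Mir203 (1773 ± 334). Mir181a-1 (1536 ± 117) overlapped it too, but shares sequence with another gene and may be counted too low. All of these are means ± SD with n = 2.

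Within the cluster, the reads of Gm24083 outnumbered those of Mir425 by a modest factor. How evenly different small RNAs were captured in the libraries was not measured, so this is a ratio of reads. Gm24083 over Mir425 was 1.42 in replicate 1 (exact 95% interval 1.39 to 1.46) and 1.62 in replicate 2 (1.57 to 1.67), a mean of 1.52 ± 0.140 (SD, n = 2). Gm24083 thus made up 58.7% and 61.8% of the cluster's counts. The intervals of the libraries did not overlap, and the ratio in replicate 1 was 0.878 times that in replicate 2 (Fisher's exact test, two-sided, adjusted over 101 neighbour pairs, p = 1.08e-09). That test compares the reads of 2 libraries and holds no estimate of the spread between lungs.

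The ratio of reads needs no scaling between libraries, so it could be set beside those of other neighbours. With each gene placed on the strand that held its reads, 101 pairs of detected genes followed each other within 10 kb on a strand. Their median fold between the higher and the lower gene was 6.48, and 43 pairs differed by more than 10-fold. At 1.51, the ratio of the mean levels, the pair of Gm24083 and Mir425 was place 14 counted from the most alike, one of 23 pairs under 2-fold. Left to their annotated strands, Gm24083 and Mir425 form no pair, and the median was 8.15 over 94 pairs. Without genes that share sequence, the median was 4.82 over 81 pairs with strands resolved and 5.96 over 74 pairs on annotated strands. Sharing was judged on annotated strands in both cases, so genes read from the opposite strand were not checked on the strand that held their reads.

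The pairs with the nearest fold were Mir302a over Mir302d (1.5), Mir181c over Mir181d (1.53) and Mir376c over Mir667 (1.49). Mir302a and Mir302d belong to a cluster of pluripotent cells and were at only 14.7 and 9.78 CPM, whereas Mir181c and Mir181d were at 4070 and 2660 CPM. The ratio within a pair differed between the libraries for 44 of the 101 pairs (43.6%) by the same test, the pair of Gm24083 and Mir425 among them. Its shift, 0.19 on the log2 scale, was close to the median shift of 0.18, and 48 pairs shifted more.

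**Figure D4:**
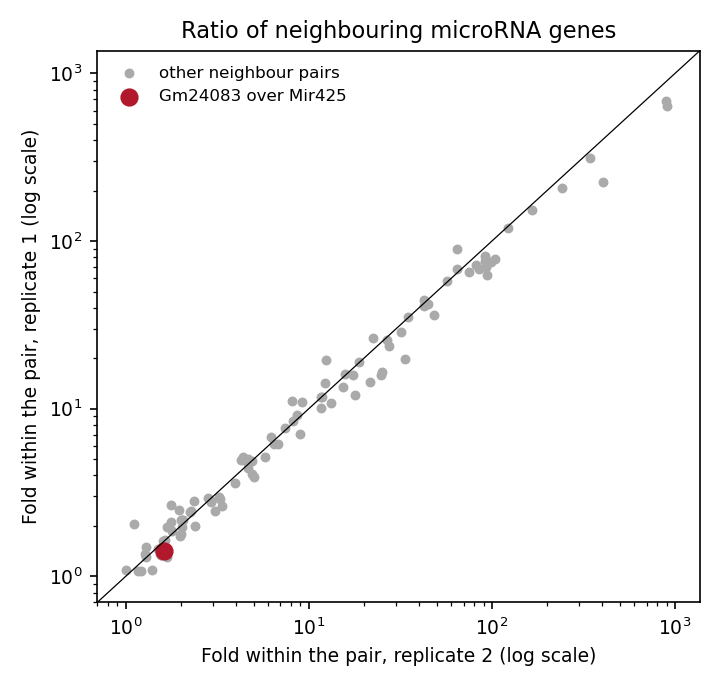
Fold of the gene with the higher mean over its neighbour in replicate 1 (vertical) and replicate 2 (horizontal), log scales, one point per pair of the 101 pairs; the line marks equal folds. The pair of Gm24083 and Mir425 lies in the lower left corner, at 1.42 and 1.62.

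The last question was how far each member differed between the pools. Mir425 was 1.10-fold higher in replicate 1 (95% interval 1.07 to 1.14), a log2 ratio of 0.14, and passed the exact binomial test with Benjamini-Hochberg adjustment over all detected genes (adjusted p = 1.77e-09). Across detected genes 16.4% were called higher in replicate 1 and 30.5% higher in replicate 2. With TMM factors, 74 and 84 genes were called, and with DESeq2's size factors 78 and 75, against 57 and 106 on CPM. Mir425's direction held under the other scalings run, at 0.18 with edgeR's TMM factors and 0.195 with DESeq2's size factors. TMM and size factors are scalings that lean on the typical gene in place of the total.

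Gm24083 lay on the other side of equality, at 0.969 of its level in replicate 2 (0.945 to 0.994), a log2 ratio of -0.045 (exact binomial test, adjusted p = 0.0318). This call rested on the scaling. The log2 ratio was -0.009 with TMM factors (exact binomial test, adjusted p = 0.722) and 0.006 with size factors (adjusted p = 0.805). Of the 347 detected genes, 44 had a smaller absolute log2 ratio than Gm24083 and 161 a smaller one than Mir425. Among the 99 genes at 1000 CPM or more, the numbers were 19 and 68. Markers of other tissues also moved between the libraries. Of 14 markers of blood, liver, muscle, heart and neural tissue, 10 were detected, with a median absolute log2 ratio of 0.75, and 2 of the 10 (Mir223 and Mir132) differed by less than Mir425. By the exact binomial test replicate 1 was higher for 4 and replicate 2 for 5. Mir124a-1 and Mir1a-1 had 0 counts in both libraries, and Mir142 and Mir9-1 were not matched by symbol. The reads of Mir142's strand stand in the row Mir142b, at 1149 and 1258 CPM. The summed share of these markers was 0.318% and 0.351%, or 0.433% and 0.477% with Mir142b. For the 11 markers of lung epithelium, endothelium and mesenchyme, all detected, it was 21.1% in both libraries. Of those 11, 1 was called higher in replicate 1 and 9 in replicate 2 by the exact binomial test. Mir126a (87280 and 79120 CPM) and Mir143 (70220 and 72270) were the most abundant, and Mir126a was the 1 called higher in replicate 1. Over all 347 detected genes the calls were 57 (16.4%) and 106 (30.5%), and over the 99 at 1000 CPM or more 28 and 57. The calls of both marker sets are on CPM and were not repeated with TMM or size factors. The median absolute log2 ratio of the 11 lung markers was 0.115. The part of either set of markers in the differences of the cluster was not tested. With 1 library per pool, the pools and the library preparations cannot be told apart.

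**Figure D5:**
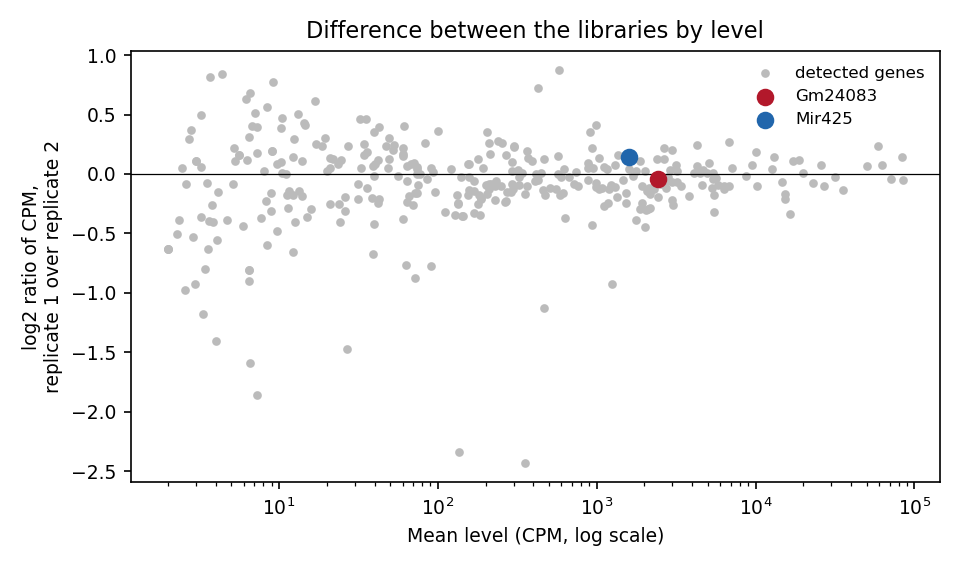
log2 ratio of CPM, replicate 1 over replicate 2, against mean level (CPM, log scale) for the 347 detected genes, one point per gene. Gm24083 lies next to the zero line at -0.045 and Mir425 above it at 0.14, both within the band of genes of like level.

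Since miR-191 and miR-425 are often used as references, they were set beside other microRNAs used in the same way, in a list of 23 that included the cluster. Of these, 20 were detected, Mir103-1 was not, and Mir24-1 and Mir92a-1 were not matched by symbol. Mir92a-1 stands in the tables as Mir92-1, at 2610 and 2740 CPM, and is left out of the counts that follow; with it, the calls were 7 and 9. In that list replicate 1 was called higher for 7 genes and replicate 2 for 8, and 5 did not pass. Over all 347 detected genes the calls were 57 (16.4%) and 106 (30.5%), and over the 99 genes at 1000 CPM or more they were 28 and 57. The split was 7 and 6 with TMM factors and 7 and 5 with size factors. The median absolute log2 ratio was 0.11, beside 0.16 over all detected genes and 0.11 over the 99 genes at 1000 CPM or more. In the list, Gm24083 had the third smallest difference and Mir425 was place 15 of 20. The 4 most abundant were Mir30e (17930 and 16620 CPM in replicates 1 and 2), Mir93 (7281 and 7035), Mir151 (6058 and 6515) and Mir423 (3554 and 4034). Mir30e and Mir93 were called higher in replicate 1, and Mir151 and Mir423 higher in replicate 2. Mir93 lies in the gene of a subunit of the replicative helicase, Mcm7, and the log2 ratio of its cluster partner Mir25 was 0.005 (adjusted p = 0.94, exact binomial test). With each gene taken on its annotated strand, 8 of the 20 share sequence with another microRNA gene, neither Gm24083 nor Mir425 among them. That comparison covered neither the opposite strand of Gm24083, which held its reads, nor genes not matched to a row, such as Mir24-1.

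A second list held microRNAs taken as intronic in broadly expressed genes, 28 of 29 detected. How broadly each host gene is expressed was not checked here, and Mir128-1 stands both in this list and among the neural markers. Gm24083 and Mir425 stand in the list under Dalrd3, although GENCODE M21 puts both hairpins in an exon of 4833445I07Rik. Their place in exons or introns of the RefSeq Dalrd3 was not analysed here. The median level of the list was 1410 CPM, beside 180 CPM for all detected genes. Gm24083 and Mir425 were places 12 and 13 in it by level. The most abundant were Mirlet7g of the Wdr82 gene (64350 and 61050 CPM in replicates 1 and 2), Mir26b of Ctdsp1 (31290 and 31830), Mir30e and Mir98 of Huwe1 (10790 and 9474). In this list 15 genes were called higher in replicate 1 and 10 higher in replicate 2, while calls over all detected genes (57 and 106) and over those at 1000 CPM or more (28 and 57) were more often higher in replicate 2. That difference between the list and the other genes was not tested. With TMM factors the split was 16 and 6, and with size factors 17 and 6. The median absolute log2 ratio was 0.12, so Mir425 at 0.14 lay above it and Gm24083 at 0.045 below it.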

How the data were processed

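The authors deposited unnormalized read counts for each microRNA gene. Assembly mm10 and annotation GENCODE M4 are named per the file headers of the accompanying notes. For the aligner, counter and trimming, the sources used here give no name. Each table has 3 count columns and 4 summary lines, which stayed out of totals. By the values, the first column was the sum of the others in all 1973 genes, so the others were read as the gene's own and the opposite strand, and the first was used for levels.

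CPM scales the gene counts of a library to 1000000. Genes were named from GENCODE M21 by identifier (1894 matched), and sequences came from RefSeq by symbol, which held 1 of the 2 members. Gm24083 is read through Mir191, whose hairpin it covers. Reads that match several loci stand on a summary line of their own. Detected means at least 10 counts in each library.

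Each gene's counts were set against the gene totals in an exact conditional binomial test (two-sided), Benjamini-Hochberg adjusted over 347 genes, threshold 0.05, and pairs with Fisher's exact test. These p-values compare the reads of the libraries. Setting 1 library against the other leaves no residual degrees of freedom for edgeR's quasi-likelihood test. Their counts differed by more than sampling noise (chi-square statistic 27486, 346 degrees of freedom), so they were kept as separate replicates. The test steps were run on simulated counts with counting error only. These libraries differ by more, so the simulation does not show how the tests behave on them. Python 3.11.15, scipy 1.17.1, pandas 2.3.3, R 4.3.3, edgeR 4.0.16 and DESeq2 1.42.0 were used.

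Named genes were the members, the 3 detected genes next above and below each in level, the 5 most abundant genes counted on the opposite strand, the 4 most abundant of each list, the 3 pairs of nearest fold and sharers of a seed. Mir1b, Mir3074-1, Mir25, Mir6236, Mir92-1, Mir142b and the markers were named after their values were seen. The members and lists were chosen with earlier results of these data known.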

Additional observations from a re-analysis of the deposited data

How the results depend on the processing

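The opposite-strand shares, the ratio of Gm24083 to Mir425 (1.42 to 1.62 with a replicate left out) and the direction and call of Mir425 between the libraries held under the alternatives run on them. For Gm24083 the log2 ratio of replicate 1 over replicate 2 was -0.045, at -0.009 with TMM factors (adjusted p = 0.722), 0.006 with DESeq2's size factors (adjusted p = 0.805) and again -0.045 over genes with at least 1 count in each library (adjusted p = 0.0501, 575 genes tested), all by the exact binomial test; over its alternatives the adjusted p ran between 0.0161 and 0.805. The counts of differing genes stayed within 1.5 times, though 57 higher in replicate 1 and 106 in replicate 2 became 74 and 84 with TMM factors and 78 and 75 with size factors. Levels moved with the denominator: without the most abundant gene Gm24083 was at 2660 and Mir425 at 1756 CPM, per 1000000 of all reads at 1197 and 790.6, and with multiply matching reads added to the gene total, chosen after seeing the data, at 1495 and 988.3. The median fold of neighbours, 8.15, was 9.98 at a minimum of 1 count. At a minimum of 50 counts, within 50 kb or with strands resolved it was 6.48. Without sequence copies, as judged on annotated strands, it was 5.96, a setting also chosen after seeing the data. The scalings and count minimums tried on the intronic list, and the use of Mir92-1 and Mir142b in the lists, were chosen after seeing the data too. The number of reads limits single-library levels here to a few percent. No paired analysis was possible because the libraries form a single group.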
